A study of Mus musculus with 6 samples.

Results

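Cytoplasmic dynein-1 is the motor that carries cargo along microtubules towards their minus ends, and its light and roadblock chains exist as pairs of closely related genes. The 6 genes examined here were the roadblock chains Dynlrb1 and Dynlrb2, the LC8 light chains Dynll1 and Dynll2, the heavy chain Dync1h1 and the intermediate chain Dync1i2. They were taken by symbol from a single-cell count table of 20483 genes, in which all 6 were present. The cells were primary tracheal airway cells of 12-week-old C57BL/6 mice, cultured at air-liquid interface, from 3 mice with the genotype WT (WT/WT mouse 1, 2 and 3) and 3 with the genotype labelled DNAAF5 Mutant. Following the study, the mutant mice are called MIS/MIS, and they are named here by the numbers in the table, MT1301, MT1306 and MT1383. Dnaaf5 encodes a factor that assembles axonemal dynein arms in the cytoplasm before they enter the cilium. The MIS allele is a missense change descended from 1 edited founder pup, so the RNA level of Dnaaf5 does not check the genotype.

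The heavy chain holds the motor domain, the intermediate chain joins it to the light chains and to dynactin, and the roadblock and LC8 chains bind the intermediate chain as dimers. Dynein-2, the motor of retrograde transport inside cilia, has its own heavy and intermediate chains but shares the roadblock and LC8 chains with dynein-1. LC8 also occurs in axonemal dyneins and in many complexes unrelated to transport. A multiciliated airway cell therefore draws on the same small chains for transport in its cytoplasm and in its many cilia.

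The table held 23871 cells, 2673 to 6710 per mouse, with 100961835 to 153326568 unique molecular identifiers (UMIs, each standing for 1 captured RNA molecule) per mouse. Median UMIs per cell ran from 21327.5 in MT1383 to 35383 in MT1306. The authors' annotation gave 16 cell types, which were also joined into multiciliated (4823 cells), secretory (7731) and basal (11126) classes. Markers followed most labels: Foxj1 was highest in Multiciliated2, Krt5 in Basal4 and Scgb3a2 in Secretory1. The secretory marker Cyp2f2 was highest in Basal8 at 9754 CPM (counts per 1000000 UMIs of the cells summed), above the 9436 CPM of Secretory1. Multiciliated1 was mixed: over the mice, 6 secretory markers summed to 9676 to 13297 CPM and 6 multiciliated markers to 893 to 1750 CPM. In Multiciliated3 the same sums were 2955 to 4206 CPM and 4910 to 5466 CPM. Multiciliated cells made up 11.7%, 12.0% and 16.2% of the cells of the WT/WT mice and 16.2%, 24.4% and 32.1% of those of MT1301, MT1306 and MT1383. A barcode occurred in 2 libraries for 67 barcodes (134 cells), and no result was recomputed without them.

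The stretches upstream of the 3 genes that set the contrast, Dynlrb2, its paralog Dynlrb1 and Dynll1, are shown because the first is nearly restricted to multiciliated cells, the second is in every type and the third lies between. They are taken from the 250 bases before the RefSeq start (GRCm38.p6, 5′ to 3′ on the gene's strand) and leave out annotated transcript, except that the GENCODE start of Dynlrb2 lies in the last 3 bases shown. Capitals mark matches to the motifs named below. Dynlrb2 is at chr8:116504765-116504976 (+), Dynlrb1 at chr2:155236283-155236532 (+) and Dynll1 at chr5:115301000-115301240 (-).
Dynlrb2: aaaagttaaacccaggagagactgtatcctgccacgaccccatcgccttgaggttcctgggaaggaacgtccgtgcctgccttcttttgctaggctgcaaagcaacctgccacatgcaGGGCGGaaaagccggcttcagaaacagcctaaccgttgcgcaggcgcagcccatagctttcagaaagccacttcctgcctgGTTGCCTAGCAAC
Dynlrb1: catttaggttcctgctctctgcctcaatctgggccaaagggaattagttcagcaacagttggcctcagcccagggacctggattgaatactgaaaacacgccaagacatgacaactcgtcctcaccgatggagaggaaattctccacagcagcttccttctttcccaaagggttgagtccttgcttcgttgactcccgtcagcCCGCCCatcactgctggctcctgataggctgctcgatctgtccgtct
Dynll1: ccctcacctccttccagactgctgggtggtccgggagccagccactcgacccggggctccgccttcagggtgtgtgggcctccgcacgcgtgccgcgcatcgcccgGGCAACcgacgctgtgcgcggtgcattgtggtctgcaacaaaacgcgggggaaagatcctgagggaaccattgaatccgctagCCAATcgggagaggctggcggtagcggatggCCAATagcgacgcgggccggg
The 13 bases in capitals at the end of the Dynlrb2 stretch match an X-box, the element to which RFX factors bind, searched as the arms GTNNCC and NGNAAC with 1 base between them. The match began at position -51 from the RefSeq start, on the gene's strand, and its first 6 bases were also a match to the RFX core GTTGCC. Among 32851 mouse promoters of the same length, 1.32% held that X-box form on either strand, 10.4% held GTTGCC, and 4.42% held the arms at any of the spacings searched, from 0 to 3 bases. The X-box spacings were listed after the Dynlrb2 window had been seen. The other capitals are a GC box (GGGCGG, in 32.7% of promoters) at position -132 in Dynlrb2 and, on the opposite strand, at -47 in Dynlrb1. In Dynll1 they are GTTGCC on the opposite strand at -144 and, nearer the start, a pair of CCAAT boxes (in 33.8% of promoters). A GC box at -10 in Dynll1 runs past the stretch shown. GTTGCC was also in both overlapping windows of Dync1i2, a gene with even levels, at -6 and -246 on the gene's strand. GC boxes were also in windows of Dync1h1 (-106) and Dync1i2. A forkhead core, TGTTTAC, was in 3.17% of promoters and a TATA box, TATAAA, in 12.4%, and neither was in a member's window. Windows were found for 5 of the 6 members, 7 in all. These matches describe letters in the windows and say nothing of binding.

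All 6 genes are protein-coding (GENCODE M21 on GRCm38). Dynlrb2 spans chr8:116504974-116515915 (+) and Dynlrb1 chr2:155236533-155250277 (+). Dynll1 spans chr5:115297110-115300999 (-), Dynll2 chr11:87979525-87987533 (-), Dync1h1 chr12:110601452-110666945 (+) and Dync1i2 chr2:71211706-71263303 (+). The libraries read the 3′ end of transcripts, so CPM was not divided by gene length. Whether different genes are captured equally well was not tested. Comparisons between genes, paralog shares included, are therefore of captured UMIs. Sequence shared between 3′ ends could also misplace reads. In the last 500 bases of their transcripts, 0% of 50-base windows recurred in another gene for 5 members, and 2.11% did for Dynll1 (19 of 902 windows).

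The first question was where each chain was expressed. Dynlrb2 separated the 4 multiciliated types from all others by more than an order of magnitude, Dynll1 was raised in the same types but present everywhere, and Dynlrb1, Dynll2, Dync1h1 and Dync1i2 were broadly expressed. Levels are means of each mouse's CPM ± SD over mice with at least 10 cells of the type. Overlap is judged between the ranges of mice and does not pair the types within a mouse. Because the authors' clusters were built from these same cells, the levels are a description and were not tested.

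Dynlrb2, the roadblock chain of ciliated tissues, reached 2986 ± 275 CPM in Multiciliated4 (n = 5, from 2541 to 3224). It stood at 1239 ± 114 CPM in Multiciliated3 (n = 6, from 1086 to 1344), 712 ± 142 CPM in Multiciliated2 (n = 6, from 596 to 972) and 257 ± 49.5 CPM in Multiciliated1 (n = 6, from 176 to 306). Each of these steps was wider than the spread over mice, since no mouse of one type overlapped a mouse of the next. In the other 11 types with enough cells, mean levels ran from 7.67 CPM (Basal4) down to 2.57 CPM (Basal8), and all neighbours in that order overlapped. The span from Multiciliated4 to Basal8 was 1164-fold. Ionocyte had at least 10 cells in 1 mouse alone and held 2 Dynlrb2 UMIs in 28 cells.

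Dynll1, an LC8 chain known for its many binding partners, had the same order within the multiciliated types, from 3336 ± 155 CPM in Multiciliated4 (n = 5) through 2034 ± 138 in Multiciliated3 and 1616 ± 170 in Multiciliated2 to 925 ± 128 in Multiciliated1 (n = 6 each). These 4 types again did not overlap, and Multiciliated1 did not overlap the next type, Basal1 at 675 ± 61.8 CPM. The secretory and other basal types followed without a gap down to Basal5 at 392 ± 38.3 CPM, and Neuroendocrine was lowest at 275 ± 40.4 CPM (n = 3). The whole range was 12.1-fold.

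**Figure D1:**
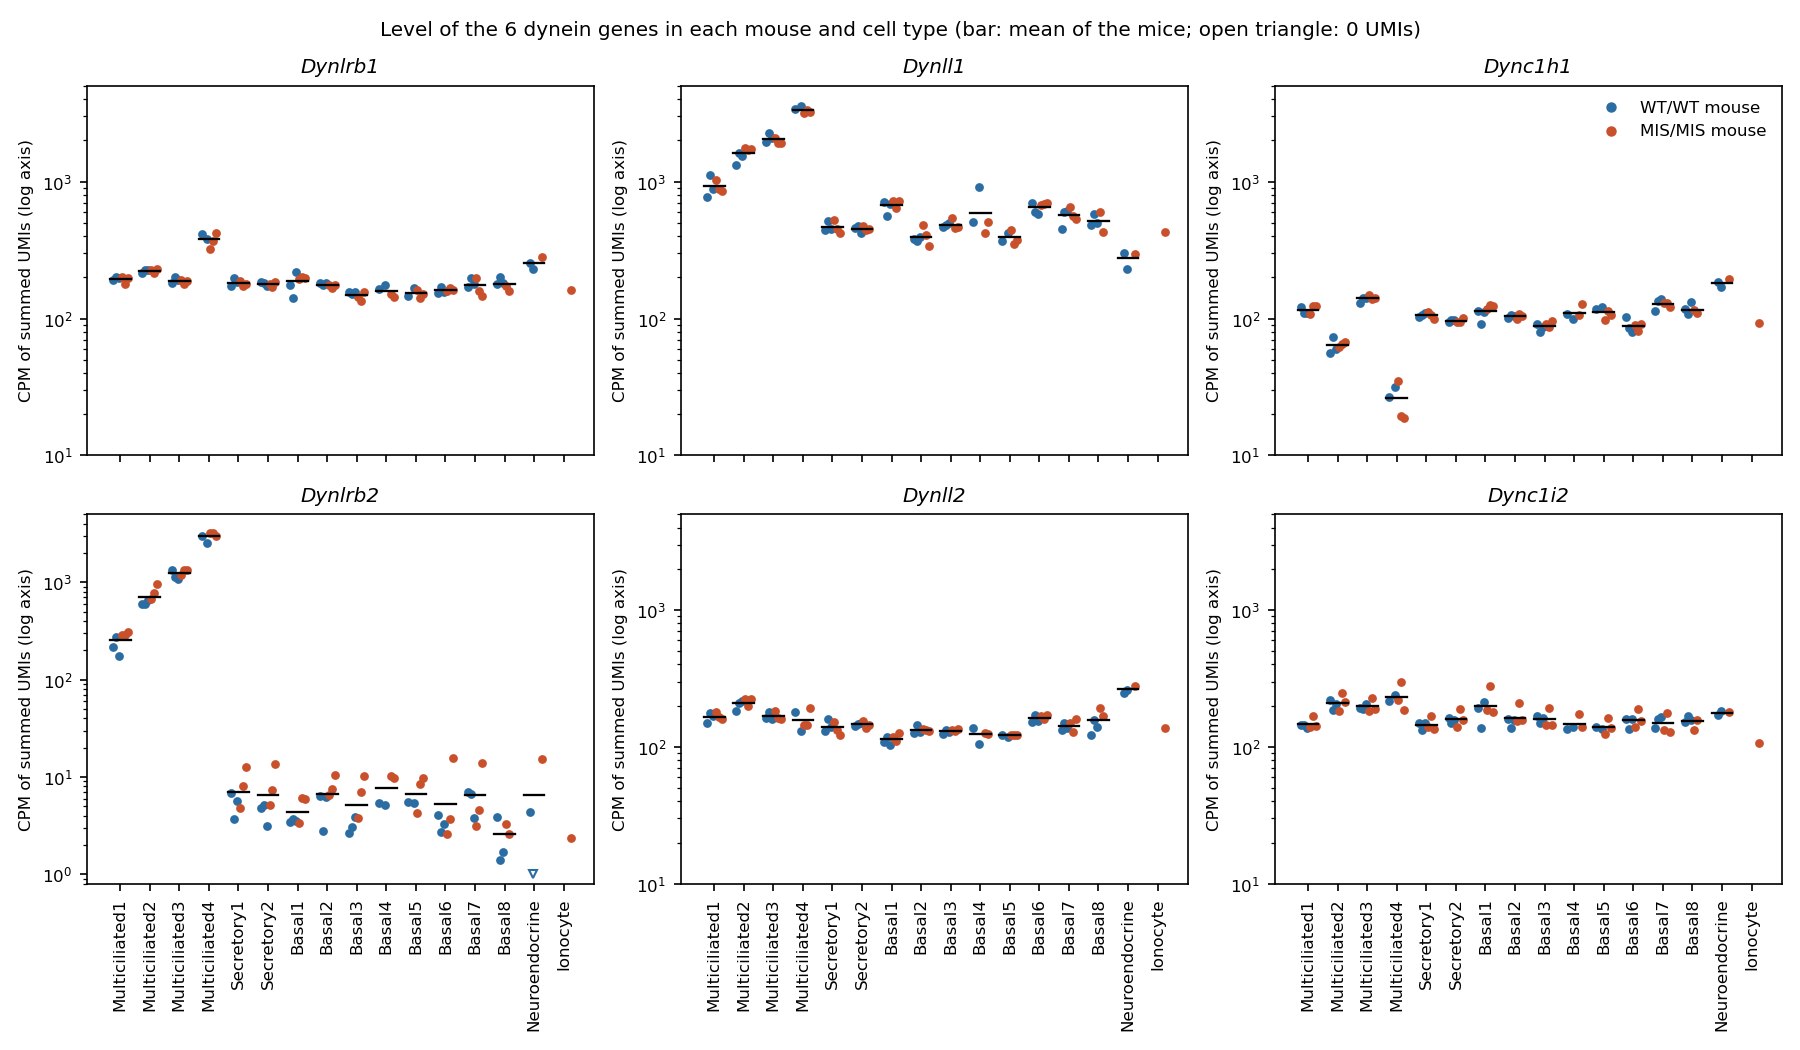
Level of each of the 6 genes (CPM, log axis) in the cell types, 1 panel per gene. Each point is a mouse with at least 10 cells of the type (WT/WT blue, MIS/MIS red), the bar is the mean over mice and an open triangle a mouse with 0 UMIs. Dynlrb2 falls from 257 CPM in Multiciliated1 to 7.67 CPM or less outside the multiciliated types, while Dync1i2 spans 1.65-fold.

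Dynlrb1, the housekeeping roadblock chain, ranged 2.55-fold. It was highest in Multiciliated4 at 381 ± 38.6 CPM (n = 5), then in Neuroendocrine at 254 ± 26.3 CPM (n = 3) and Multiciliated2 at 224 ± 7.33 CPM (n = 6), and lowest in Basal3 at 149 ± 9.12 CPM (n = 6). Apart from Multiciliated4 against Neuroendocrine and Multiciliated2 against Multiciliated1, neighbouring types overlapped. Dynlrb1 in Multiciliated3, at 188 ± 7.65 CPM, was next in order to Basal1 at 188 ± 26.4 CPM.

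Dynll2, the second LC8 chain, ranged 2.32-fold and was highest outside the ciliated lineage, in Neuroendocrine at 264 ± 15.4 CPM (n = 3). Multiciliated2 followed at 209 ± 16.6 CPM, below every mouse of Neuroendocrine. From Multiciliated2 through Multiciliated3 at 168 ± 10.4 CPM down to Basal1 at 114 ± 8.02 CPM, neighbours overlapped throughout. Within every mouse, though, Dynll2 was higher in Multiciliated2 than in Multiciliated3. Dync1i2, the intermediate chain, was the most even member, from 231 ± 40.2 CPM in Multiciliated4 to 140 ± 14.2 CPM in Basal5, with no neighbouring pair separated.

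Dync1h1, the heavy chain, followed a different order from the small chains. Its level was highest in Neuroendocrine, 182 ± 12.0 CPM (n = 3), and next in Multiciliated3, 140 ± 6.11 CPM (n = 6). It fell to 64.1 ± 5.85 CPM in Multiciliated2 (n = 6) and 26.3 ± 7.19 CPM in Multiciliated4 (n = 5, from 18.7 to 34.9), each below every mouse of the type before it. The Multiciliated4 value rests on 40 UMIs from 146 cells. Multiciliated4 and Neuroendocrine, the lowest and the highest type for Dync1h1, had nearly the same depth, with medians of 10197 and 10351 UMIs per cell.

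Because CPM is a share of each cell's RNA, the multiciliated types were also compared per cell. Dynlrb2 averaged 10.4 ± 1.94 UMIs per cell in Multiciliated1, 32.4 ± 4.96 in Multiciliated2, 37.8 ± 8.22 in Multiciliated3 and 32.3 ± 4.57 in Multiciliated4. The gap between Multiciliated3 and Multiciliated4 in CPM was thus absent per cell, where median totals were 26359.5 and 10197 UMIs. Dynll1 per cell took another order than in CPM, with 74.2 ± 10.9 UMIs in Multiciliated2, 62.0 ± 11.5 in Multiciliated3, 37.8 ± 7.39 in Multiciliated1 and 36.2 ± 4.94 in Multiciliated4. Dynlrb1, highest in Multiciliated4 in CPM, was lowest of these types there per cell, at 4.13 ± 0.609 UMIs against 10.3 ± 1.68 in Multiciliated2. The order of the multiciliated types thus depended on the scale for both genes. For Dync1h1 the per-cell numbers widened the contrast, from 4.28 ± 0.757 UMIs in Multiciliated3 to 0.284 ± 0.0783 in Multiciliated4. Of the 146 Multiciliated4 cells, 79.5% had no Dync1h1 UMI, against 6.23% of 2712 Multiciliated3 cells. These per-cell numbers and shares also carry the difference in depth between the types. With each cell thinned to the same number of UMIs, 10.3% of Multiciliated4 and 48.0% of Multiciliated3 cells had a Dync1h1 UMI.

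Single cells split the multiciliated types further. In Multiciliated1 and Multiciliated2, 27.7% and 28.6% of cells had no Dynlrb2 UMI, while the median cells held 4 and 13. In Multiciliated3 1.36% of cells had none, the median cell held 32, and all 146 Multiciliated4 cells had some. A cell held more Dynlrb2 than Dynlrb1 UMIs in 46.1% of Multiciliated1, 54.1% of Multiciliated2, 97.0% of Multiciliated3 and 100% of Multiciliated4 cells.

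The pair of roadblock genes changed places between cell types. Of Dynlrb1 and Dynlrb2 UMIs together, Dynlrb2 gave 88.6 ± 1.65% in Multiciliated4, 86.7 ± 1.46% in Multiciliated3, 75.7 ± 3.12% in Multiciliated2 and 56.4 ± 5.26% in Multiciliated1. In the other types with at least 10 cells in more than 1 mouse it gave between 1.44% and 4.72%, and in Ionocyte, from 1 mouse, 1.43%. The LC8 pair moved less and the other way: Dynll2 gave 49.2 ± 4.12% of LC8 UMIs in Neuroendocrine and 25.3 ± 2.29% in Basal2, and fell to 15.3 ± 0.959% in Multiciliated1 and 4.54 ± 0.801% in Multiciliated4. Basal1, at 14.5 ± 1.53%, overlapped Multiciliated1.

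**Figure D2:**
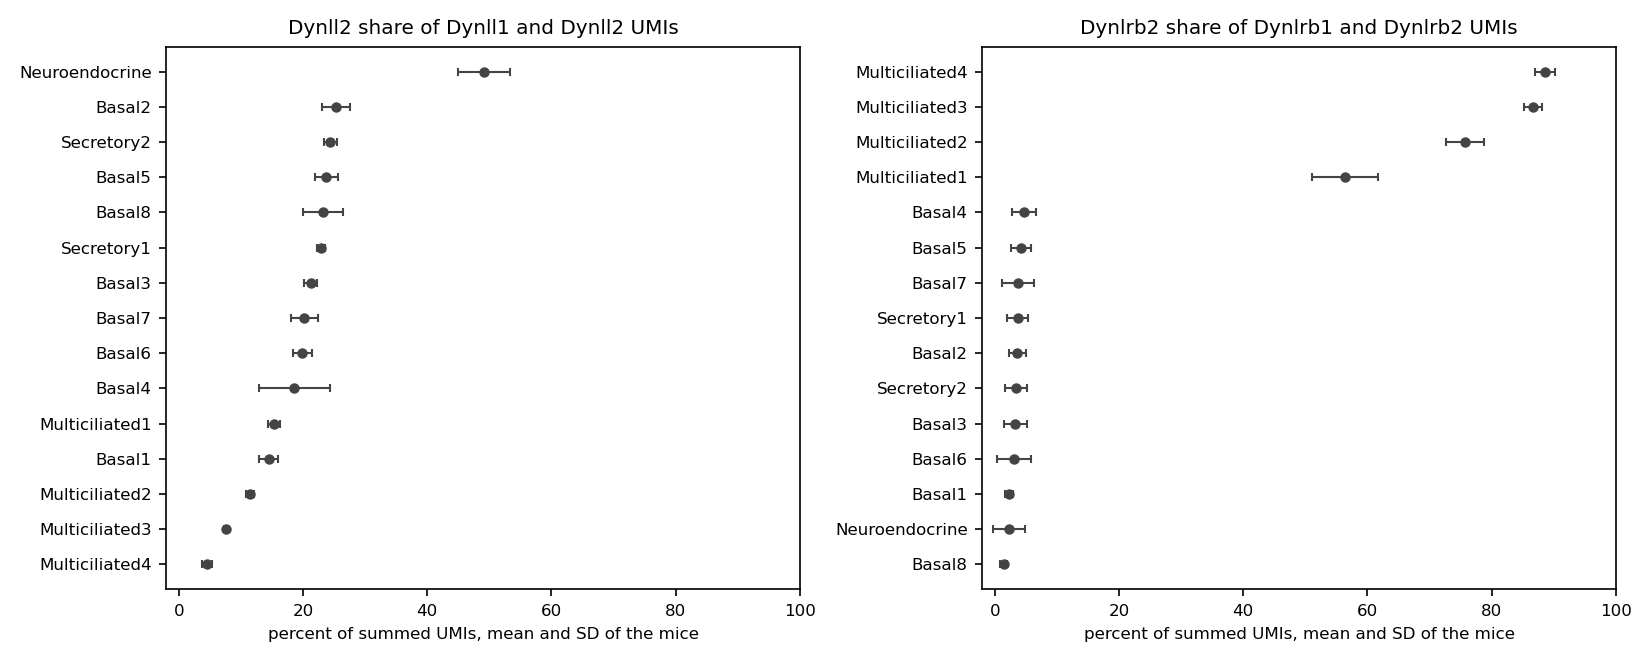
Share of Dynlrb2 in the UMIs of both roadblock genes and of Dynll2 in the UMIs of both LC8 genes (percent, mean ± SD over mice with at least 10 cells), by cell type. Dynlrb2 gives 56.4% to 88.6% in the multiciliated types and a mean of at most 4.72% elsewhere, and Dynll2 is lowest in Multiciliated4 at 4.54%.

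Few Dynlrb2 UMIs appeared outside multiciliated cells, and they were set beside 6 multiciliated markers (Foxj1, Tppp3, Dnah5, Cfap126, Rsph1 and Ccdc39). At least 1 Dynlrb2 UMI was found in 87.8% of multiciliated cells, 15.3% of secretory and 11.2% of basal cells, with median totals of 29360, 32690 and 26312 UMIs per cell. With each cell thinned to 5000 UMIs, which left no cell out, these shares were 79.6%, 3.56% and 2.80%. Dynlrb1 by the same measure was nearly even, at 62.5%, 58.3% and 55.5% of thinned cells. Dynll1 was found in 98.2%, 85.7% and 86.3% of thinned cells, and Dync1h1 in 42.4%, 39.6% and 38.8%.

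The Dynlrb2 level in secretory cells was 0.753 ± 0.307% of that mouse's multiciliated level, and in basal cells 0.606 ± 0.222% (n = 6). The 6 markers, by the same measure, had means between 0.330% and 1.83%, on both sides of Dynlrb2. The ratio of Dynlrb2 UMIs to summed marker UMIs was 0.246 ± 0.0249 in multiciliated, 0.209 ± 0.0421 in secretory and 0.208 ± 0.0417 in basal cells (n = 6), with overlapping ranges. Within every mouse, however, the multiciliated ratio was above the secretory and the basal ratio. The closest values were those of MT1383, 0.269 in multiciliated and 0.265 in secretory cells. Most Dynlrb2 UMIs outside multiciliated cells were spread thinly: 29 secretory and 39 basal cells with 5 or more Dynlrb2 UMIs held 11.2% and 15.9% of their class's total. Free RNA in droplets gives UMIs of this kind to cells that do not make the RNA, and its part in the result was not tested.

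**Figure D3:**
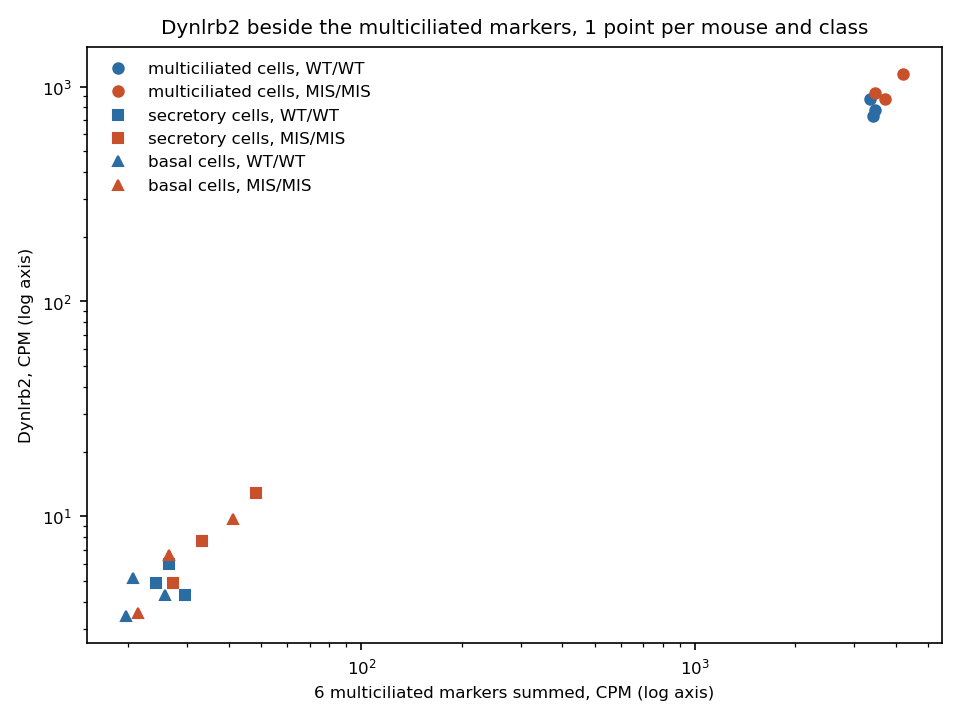
Dynlrb2 level against the summed level of 6 multiciliated markers (CPM, both axes logarithmic), with 1 point per mouse in multiciliated, secretory and basal cells. The ratio of Dynlrb2 to marker UMIs lies between 0.146 and 0.271 in all points, and in secretory and basal cells MT1383 is highest on both axes.

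The multiciliated level divided by the basal level within each mouse placed the members among related genes. It was 180 ± 49.6 for Dynlrb2 (from 96.5 in MT1383 to 244) and 3.15 ± 0.278 for Dynll1. For Dynll2 it was 1.34 ± 0.0737, for Dynlrb1 1.20 ± 0.0839, for Dync1i2 1.16 ± 0.0794 and for Dync1h1 1.1 ± 0.0609 (n = 6 each). Of 5 axonemal chains, 3 had ratios above 100, the outer-arm intermediate chains Dnaic1 and Dnaic2 at 427 ± 211 and 210.2 ± 64.7 and the inner-arm chain Dnali1 at 183 ± 40.6. The other 2, the light chains Dnal1 and Dnal4, were at 7.47 ± 1.43 and 3.15 ± 0.341. Dynll1 was below the dynein-2 subunits, from 5.58 for Wdr34 to 13.7 for the heavy chain Dync2h1, with Tctex1d2 at 8.77. The kinesin-2 motors of anterograde transport, Kif17 and Kif3a, were at 19.7 and 5.94.

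Among the other dynein-1 subunits, the Dynlt1 light chains had the highest ratios, 4.62 for Dynlt1b and 4.12 for Dynlt1c. Every 50-base window in the ends of both recurred in another gene, so the split of reads among Dynlt1 copies is uncertain. The light intermediate chains Dync1li1 and Dync1li2 and the light chain Dynlt3 were between 0.884 and 0.978. In dynactin, the complex that links dynein to cargo, the highest ratios were 1.95 for Actr1b and 1.46 for Dctn3. Among regulators and adaptors they were 6.94 for Nudc, a dynein cofactor, and 4.82 for Nin, a centrosomal adaptor.

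Profiles over the 16 cell types (Pearson r of log2(CPM + 1), 11737 genes at 10 CPM or more in at least 1 type) gave the genes most like each member. These are descriptions, since the 16 points share 6 libraries and differ in depth. For Dynlrb2 they were Fam92b (0.998), Ccdc113 (0.997), Cfap161 (0.996), Ppp1r42 (0.996) and Dnajb13 (0.996), and 323 genes had r over 0.95. For Dynll1 they were Chchd4 (0.952), Ift43 (0.951) and 1700016J18Rik (0.947).

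For Dynlrb1 the nearest genes were Med28 (0.945), Polr2k (0.928) and Alkbh6 (0.927), and for Dynll2 Med16 (0.920), Rundc3b (0.902) and Lhfpl4 (0.896). For Dync1h1 they were Slc49a4 (0.969), Fbxl20 (0.965) and Atp2c1 (0.963), and for Dync1i2 Pfdn4 (0.952), Bud23 (0.938) and Pfdn2 (0.938). Between members, Dynlrb2 and Dynll1 had r of 0.88. Dync1h1 had negative r with Dynll1 (-0.67), Dync1i2 (-0.57), Dynlrb1 (-0.56) and Dynlrb2 (-0.50), and r of 0.14 with Dynll2. In Multiciliated4 Dync1h1 was lowest, at 26.3 CPM from 40 UMIs, while Dynll1, Dync1i2, Dynlrb1 and Dynlrb2 were highest. In Multiciliated3 Dync1h1 was high, at 140 CPM. These r were not computed without Multiciliated4.

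The second question was whether the Dnaaf5 mutation came with a different level of any chain. UMIs were summed per mouse and class, and MIS/MIS was compared with WT/WT by limma voom over all genes with Benjamini-Hochberg adjustment. None of the 6 members passed in multiciliated, secretory or basal cells. The nearest was Dynlrb2, higher in MIS/MIS multiciliated cells by 0.28 on the log2 scale with an interval that included 0. Values below are CPM scaled by TMM (trimmed mean of M values) factors. In these sums, fewer cells of a type and less RNA per cell cannot be told apart.

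In multiciliated cells Dynlrb2 was 900.2, 734 and 776 CPM in WT/WT mouse 1, 2 and 3, and 869, 1141 and 920 CPM in MT1301, MT1306 and MT1383. MT1306 and MT1383 were above all WT/WT mice and MT1301 was not, so the genotypes overlapped. The log2 fold change was 0.28 (SE 0.13, 95% interval from -0.02 to 0.57, limma adjusted p = 0.896). In linear terms the interval ran from 0.987 to 1.49-fold. Without MT1306 the log2 fold change was 0.16.

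Dynlrb1 was 202, 215 and 200.3 CPM in the WT/WT mice and 204, 189 and 198 CPM in MT1301, MT1306 and MT1383, a log2 fold change of -0.06 (SE 0.07). Dynll1 was 1532, 1762 and 1667 CPM against 1778, 1738 and 1525 CPM, a log2 fold change of 0.03 (SE 0.10). Dynll2 was 167, 192 and 171 CPM against 192, 166 and 171 CPM, with a log2 fold change of less than 0.01 in size (-0.0037, SE 0.09). In all of these chains the genotypes were interleaved, with the SE larger than the difference. Dync1h1 was 111, 106 and 115 CPM against 114, 124 and 117 CPM, a log2 fold change of 0.10 (SE 0.07). Dync1i2 was 190.3, 179 and 187 CPM against 174, 222 and 177 CPM, a log2 fold change of 0.04 (SE 0.10), and MT1306 alone was above the WT/WT mice.

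Over all 14206 genes tested in multiciliated cells 0.00704% passed, which is 1 gene, and 614 had an unadjusted p under 0.05. Of the members 0 passed and 0 had an unadjusted p under 0.05, and limma-trend also passed 0. The genotypes did not overlap for 9.62% of genes tested and for 0 members. The median log2 fold change was 0.03 over the 6 members and 0.01 over all genes.

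**Figure D4:**
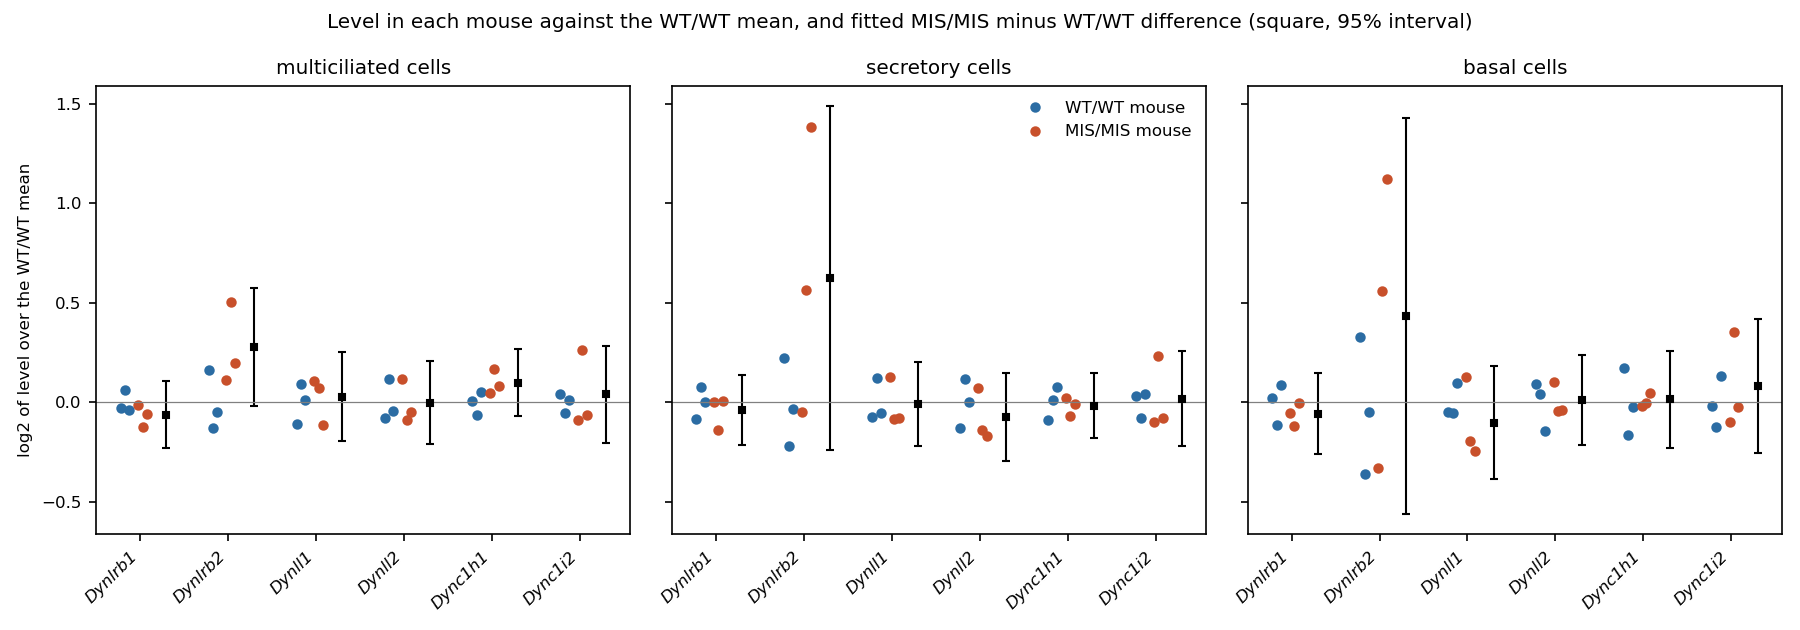
Level of each gene in each mouse relative to the WT/WT mean (log2, points; WT/WT blue, MIS/MIS red) with the fitted MIS/MIS minus WT/WT difference (square) and its 95% interval, in multiciliated, secretory and basal cells. Every interval includes 0, and those of Dynlrb2 in secretory and basal cells, where few UMIs were counted, are the widest.

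The 3 larger multiciliated types were then fitted one at a time, a step chosen after the data had been seen, because Multiciliated3 made up 61.2 ± 7.97% of multiciliated cells in MIS/MIS and 51.3 ± 8.0% in WT/WT. Drawing the same number of cells of each type from every mouse left a log2 fold change of 0.20 for Dynlrb2. In Multiciliated1 Dynlrb2 was 227, 268 and 181 CPM in the WT/WT mice and 283, 289.7 and 297 CPM in MT1301, MT1306 and MT1383, a log2 fold change of 0.39 (SE 0.13, limma adjusted p = 0.994). In Multiciliated2 it was 614, 598 and 656 CPM against 679, 778 and 950.0 CPM, a log2 fold change of 0.37 (SE 0.12, limma adjusted p = 0.987). In both types every MIS/MIS mouse was above every WT/WT mouse, but neither difference passed the adjustment.

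In Multiciliated3 Dynlrb2 was 1369.7, 1144 and 1069.6 CPM in the WT/WT mice and 1194, 1364 and 1306 CPM in MT1301, MT1306 and MT1383, with overlapping genotypes and a log2 fold change of 0.11 (SE 0.10). Dynll1 in Multiciliated2 was 1358, 1621 and 1540 CPM against 1779, 1711 and 1707 CPM, without overlap, a log2 fold change of 0.20 (SE 0.08, limma adjusted p = 0.987). In Multiciliated1 and Multiciliated3 its log2 fold changes were -0.03 and -0.09.

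By adjusted p, 0 of 6 members passed in any of these types, beside 0.00874% of genes in Multiciliated1, 0.00857% in Multiciliated2 and 0.0229% in Multiciliated3. The genotypes did not overlap for 1 of 6 members in Multiciliated1 (7.92% of all genes), 2 of 6 in Multiciliated2 (7.54%) and 0 of 6 in Multiciliated3 (9.94%). The members with an unadjusted p under 0.05 were the same 1, 2 and 0. Over all genes, such a p was found for 454 of 11446 in Multiciliated1, 408 of 11674 in Multiciliated2 and 589 of 13096 in Multiciliated3. Whether the genotype difference itself differed between these types was not tested.

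Marker sums of the same cells are given beside these values, on the same TMM scale. No multiciliated, basal or secretory marker passed the adjustment in multiciliated cells. The 6 multiciliated markers summed to between 3433 and 3452 CPM in WT/WT multiciliated cells and between 3415 and 4208 CPM in MIS/MIS, with MT1383 below all WT/WT mice. Of the 6, Dnah5 alone (log2 fold change 0.30) had genotypes that did not overlap, beside 9.62% of all genes. In Multiciliated2 the sums were 2449.7 to 2571 CPM against 2644 to 2955 CPM, without overlap, and in Multiciliated1 and Multiciliated3 they overlapped.

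The 6 basal markers summed to between 893 and 1239 CPM in WT/WT and between 563 and 745 CPM in MIS/MIS multiciliated cells, without overlap. Of the 5 that were tested Krt5, Krt14 and Krt15 did not overlap, again beside 9.62% of all genes, while Trp63 and Aqp3 did. The basal sums overlapped in Multiciliated1 (2481 to 3210.4 against 1858 to 2497 CPM). They did not overlap in Multiciliated2 (641 to 939 against 439.6 to 622 CPM) or Multiciliated3 (155 to 278 against 99.7 to 125 CPM), where 7.54% and 9.94% of single genes did not.

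The sums of secretory markers overlapped between genotypes in all of these cells, although Muc5b, 1 of the 6, did not overlap in multiciliated cells as a class (log2 fold change 1.63). Muc5b averaged 0.584 CPM there, from 100 UMIs in all, and 9.62% of all genes did not overlap. The part of these markers in the Dynlrb2 differences was not tested.

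In secretory cells Dynlrb2 was 5.91, 4.35 and 4.96 CPM in the WT/WT mice and 4.91, 7.50 and 13.2 CPM in MT1301, MT1306 and MT1383, a log2 fold change of 0.62 (SE 0.37, 95% interval from -0.24 to 1.49). In basal cells it was 5.53, 3.43 and 4.25 CPM against 3.49, 6.49 and 9.58 CPM, a log2 fold change of 0.43 (SE 0.42, 95% interval from -0.56 to 1.43). MT1383 was highest in both classes and MT1301 lay among the WT/WT mice. Without MT1383 the log2 fold changes were 0.26 in secretory and 0.07 in basal cells, and without MT1301 they were 1.06 and 0.88. MT1383 also had the highest summed multiciliated markers, 49.9 CPM in secretory cells (other mice 24.6 to 32.5) and 40.7 CPM in basal cells (other mice 19.6 to 26.0), and the part of these in the result was not tested.

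The 5 other members had log2 fold changes between -0.08 and 0.02 in secretory cells and between -0.10 and 0.08 in basal cells. In secretory cells 0.00735% of 13610 genes passed and 6.03% had genotypes that did not overlap, beside 0 and 0 of the 6 members. In basal cells 0.0% of 14615 genes passed by limma voom, with 334 genes at an unadjusted p under 0.05, limma-trend passed 0 with 343, and 7.04% of genes had genotypes that did not overlap. There too 0 members passed, 0 had an unadjusted p under 0.05 and 0 were free of overlap.

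The differences of the Dynlrb2 genotype effects between classes were 0.38 (SE 0.35, limma adjusted p = 1.00) for secretory minus multiciliated and 0.22 (SE 0.34, limma adjusted p = 0.988) for basal minus multiciliated. Over 15942 genes 0.0% passed in the first contrast and 0.0% in the second, with 353 and 703 genes at an unadjusted p under 0.05. By limma-trend also 0 passed, with 493 and 790 genes.

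The balance between paralogs was compared by exact permutation over mice, two-sided, where 3 against 3 mice cannot give a p below 0.1, and 6 such tests were made. In multiciliated cells Dynlrb2 gave 81.7%, 77.4% and 79.5% of roadblock UMIs in the WT/WT mice and 81.0%, 85.8% and 82.3% in MT1301, MT1306 and MT1383. The difference of 3.53 percentage points had overlapping genotypes (exact permutation p = 0.2, adjusted 0.6). Without MT1306 it was 2.15 points, and as a mean over single cells 8.63 points.

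Outside multiciliated cells the Dynlrb2 share was 2.70 ± 0.553% in WT/WT and 4.53 ± 2.05% in MIS/MIS secretory cells (n = 3, exact permutation p = 0.3). In basal cells it was 2.49 ± 0.513% and 3.77 ± 1.62% (n = 3, exact permutation p = 0.4). The Dynll2 share of LC8 UMIs was 9.67 ± 0.298% against 9.51 ± 0.695% in multiciliated cells (n = 3, exact permutation p = 0.8) and 19.4 ± 2.22% against 20.6 ± 1.36% in basal cells (p = 0.5 by the same exact test). In secretory cells it was 23.8 ± 0.708% against 23.0 ± 0.242%, with every MIS/MIS mouse below every WT/WT mouse (n = 3, exact permutation p = 0.1, adjusted 0.6). The gap was narrow, with WT/WT mouse 1 at 23.16% and MT1301 and MT1306 both at 23.12%.

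Related genes of the pathway were read in the same fit of multiciliated cells, and 0 of the 50 that were tested passed. The 5 axonemal intermediate and light chains all had positive log2 fold changes, with a median of 0.15. Dnaic2, an outer-arm intermediate chain, was 122, 113 and 115 CPM in the WT/WT mice and 130.3, 151 and 136 CPM in MT1301, MT1306 and MT1383, without overlap. Its log2 fold change was 0.26 (SE 0.08, limma adjusted p = 0.896), and those of Dnali1 and Dnal4 were 0.15 and 0.11. Of these 5 chains, 1 had genotypes that did not overlap, beside 9.62% of all genes.

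Of the 5 dynein-2 subunits 4 had positive log2 fold changes, with a median of 0.10. The heavy chain Dync2h1 was 115, 105 and 114 CPM against 114, 156 and 125 CPM, a log2 fold change of 0.24 (SE 0.12, limma adjusted p = 0.896), and MT1301 was within the WT/WT range. Wdr34 and Dync2li1 were at 0.10 and 0.11. Of the 4 kinesin-2 genes 2 were positive. Kif17, at 2.28, 2.44 and 2.17 CPM against 3.94, 3.54 and 2.66 CPM, did not overlap and had a log2 fold change of 0.45 (SE 0.24), while Kifap3 and Kif3b were at 0.17 and -0.03. The genotypes did not overlap for 1 of 4 kinesin-2 genes and 0 of 5 dynein-2 subunits, beside 9.62% of all genes.

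The 7 tested of 8 other dynein-1 subunits all had negative log2 fold changes, with a median of -0.04. The lowest p belonged to Dynlt1b (-0.70, at 0.742 to 4.63 CPM), Dynlt1a (-0.12) and Dynlt1c (-0.06), whose reads are shared between copies. Of the 12 dynactin genes 5 were positive and 7 negative, with a median of -0.03. Actr10 (-0.13) and Dctn6 (-0.13) had genotypes that did not overlap, and Dctn1, the subunit that binds the dynein intermediate chain, was at 0.17 with overlap. The genotypes did not overlap for 2 of 12 dynactin genes and 0 of 7 other dynein-1 subunits, beside 9.62% of all genes.

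Of the 17 regulators and adaptors 6 were positive and 11 negative, with a median of -0.03. The cofactor Nudcd3 was at 0.16 without overlap, the mitotic adaptor Spdl1 at -0.29 and Bicd1 at 0.17. Of the 17, 1 had genotypes that did not overlap, beside 9.62% of all genes. In secretory and basal cells 0 genes of these lists passed either. The medians over the lists lay between -0.04 and 0.15 in multiciliated cells, beside 0.01 over all genes.

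**Figure D5:**
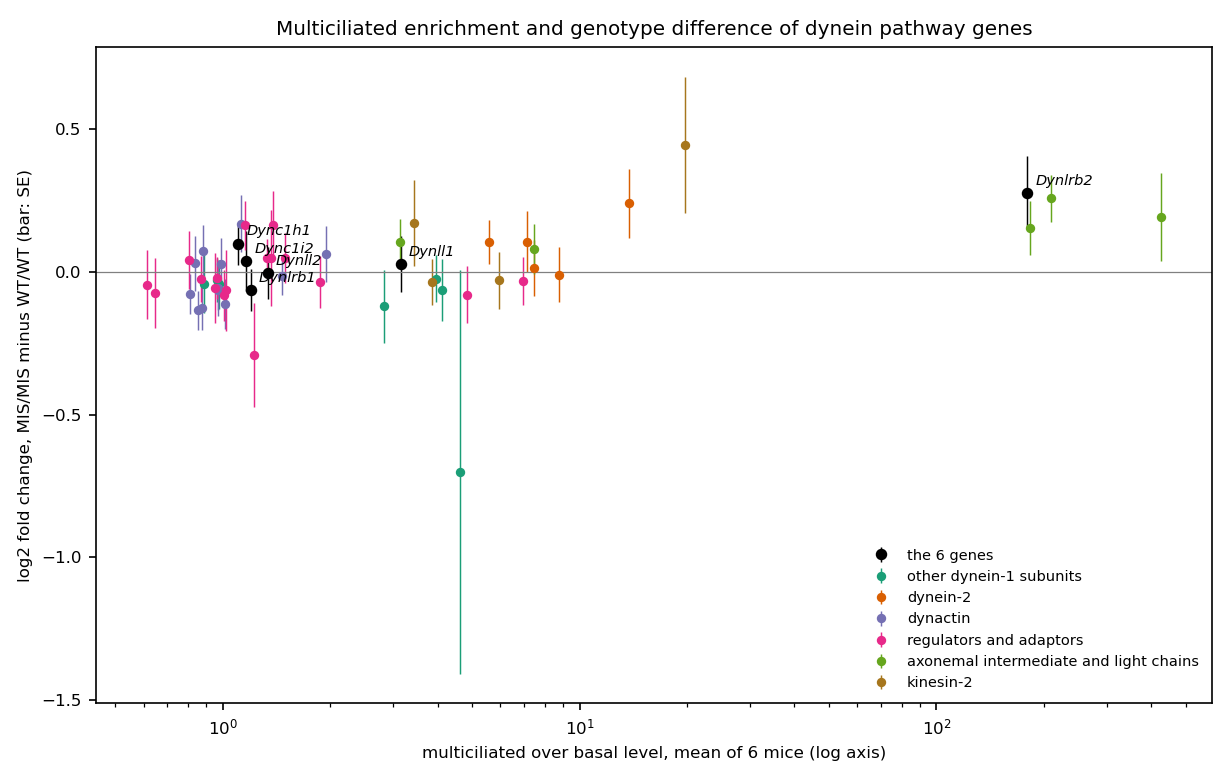
Each related gene tested in multiciliated cells, by the ratio of its multiciliated to its basal level (log axis, mean over mice) and its MIS/MIS minus WT/WT log2 fold change (± SE), coloured by list. Dynlrb2 lies at a ratio of 180 beside Dnaic2 and Dnali1, with log2 fold changes of 0.28, 0.26 and 0.15, and none of these passed the adjustment.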

How the data were processed

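Single-cell RNA was captured with a 10x 3′ kit from tracheal cells of each of the 6 mice after culture. Per the labels, reads were processed with Cell Ranger 7.1.0 against mm10, while the study's methods name another Cell Ranger version. Those methods also describe Seurat filtering, clustering and manual annotation. Not all deposited cells meet the stated filters: of 332 multiciliated cells of WT/WT mouse 1, 277 did. The authors deposited UMI counts as whole numbers, and separately the type assigned to every cell; the text table joins fields with an unusual mark and was recorded as other. The 6 members, lists and tests were chosen with earlier results of these data known.

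UMIs were summed per mouse and cell type (levels, at least 10 cells) or class. The values are whole-number counts, but with the table so recorded no count model was run. Genotypes were compared with limma 3.58.1 voom (R 4.3.3), TMM factors, and genes with a count of 10 in at least 3 mice. A gene passed at an adjusted p under 0.05. All genes were fitted and p-values adjusted over all of them by Benjamini-Hochberg. Nothing says that the mice were cultured on separate days, and cells were not treated as replicates. Doublets were not called anew. Intervals of fold changes are at 95%. On simulated counts, 200 genes changed 2-fold were recovered at 98.5% in the multiciliated comparison with a dispersion of 0.02 and at 7% with 0.1. In secretory and basal cells recovery was 100% and 99.5% with 0.02, and 3% and 2% with 0.1. Which dispersion is nearer these data was not tested. The fitted differences of the members were below 2-fold, so these shares do not say how often they would be found. Members were named in full; of each list, the 3 genes with the lowest p and the 2 with the highest multiciliated to basal ratio were named. Alternatives were upper-quartile scaling, no low-count filter, thinned cells, the study's cell filters, equal composition, the largest subcluster and each mouse left out; limma-trend, sample weights and single multiciliated types were chosen after seeing the data. Positions are from GENCODE M21 and promoters from RefSeq on GRCm38.p6. Python 3.11.15, scipy 1.17.1 and pandas 2.3.3 were used.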

Additional observations from a re-analysis of the deposited data

Results flagged for a closer look

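In 84 sets of 4 to 6 mice (6 genes by cell type), 5 had a mouse far from the others by Dixon's criterion, which chance meets in about 1 of 20 sets. Dync1i2 was 208 CPM in Basal2 of MT1306 (other mice 138 to 161, 248 cells), 174 CPM in its Basal4 (other mice 135 to 141, 118 cells) and 167 CPM in its Multiciliated1 (other mice 137 to 145, 87 cells). Dynlrb2 was 15.5 CPM in Basal6 of MT1383 (other mice 2.58 to 4.07), from 65 UMIs in 164 cells. Dynlrb2 in Basal7 of MT1383 was 13.8 CPM (other mice 3.13 to 7.05), from 4 UMIs in 12 cells.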

How the results depend on the processing

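The number that passed, 0, held under all 59 alternatives to those counts. They covered the members in each class, the comparison of the members between classes, and the related genes. Of 240 alternative log2 fold changes of single members 30 turned sign, all for differences that did not pass, and the cause was not tested. For Dynll1 in multiciliated cells these were -0.089 in the largest subcluster, -0.014 at equal composition and -0.031 in Multiciliated1 alone. For Dynll2 in multiciliated cells they were 0.0066 with no low-count filter, 0.012 with sample weights, 0.00072 with the study's cell filters, 0.0033 in the largest subcluster and 0.085 in Multiciliated2 alone. For Dynll1 in secretory cells they were 0.0040 with upper-quartile scaling and 0.027 in thinned cells, and for Dync1h1 in thinned basal cells -0.015. With each mouse left out in turn, the ranges that crossed 0 were -0.052 to 0.11 (basal) and -0.055 to 0.021 (secretory) for Dync1h1, -0.052 to 0.18 (basal), -0.078 to 0.11 (multiciliated) and -0.086 to 0.080 (secretory) for Dync1i2, -0.027 to 0.093 (multiciliated) and -0.070 to 0.055 (secretory) for Dynll1, -0.061 to 0.067 (basal) and -0.067 to 0.057 (multiciliated) for Dynll2, and -0.075 to 0.012 (secretory) for Dynlrb1. Of 44 alternative paralog shares 3 turned: the Dynll2 share difference in multiciliated cells was 0.461 points in the largest subcluster and ran from -0.434 to 0.235 with a mouse left out, and in basal cells from -0.0504 to 1.98. Levels pooled over mice moved for Dynll2 in Neuroendocrine, to 285 CPM, and for Dynlrb2 there, to 16.05 CPM, and 88 of 90 did not. Thinning lowered all 18 shares of cells, for Dynlrb2 to 79.6%, 3.56% and 2.80%. Dynlrb2 in multiciliated cells kept a positive sign throughout, with a lowest adjusted p of 0.533.

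The edgeR and DESeq2 alternatives were not run, because the table is not recorded as counts, although its values are whole numbers. No paired analysis was possible because the mutant columns carry numbers that match no title. Depth limits Dynlrb2 outside multiciliated cells and Dync1h1 in Multiciliated4, where 40 UMIs were counted.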

Other observations

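Dync1i2 was highest in MT1306 in 13 of the 14 cell types in which that mouse had at least 10 cells, across multiciliated, secretory and basal types. Dynlrb2 was highest in MT1383 in 10 of its 14 types, and Dynll1 was highest in MT1301 in 7 of its 13 types. Dynlrb1 was lowest in MT1306 in 7 of 14 types. In Neuroendocrine cells, 14 of the 32 Dynlrb2 UMIs came from the 6 such cells of WT/WT mouse 1 and 17 from the 108 cells of MT1383.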
